A study of Mus musculus with 4 samples.

Results

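Mettl3 knockout (KO) embryoid bodies (EBs) were set against wild-type (WT) EBs by ribosome profiling, with 1 library of each. Every autosomal gene whose normalised footprint count averaged at least 25 over the 4 libraries of the study was compared, which kept 9265 of the 9670 genes past that limit and of 20716 genes in the table. Genes just inside the limit were Shtn1, with 28.4 in KO EBs and 54.5 in WT EBs, and Phf14, with 19.4 in KO EBs and 26.5 in WT EBs. Just outside were the homeobox gene Hoxc6, with 73.1 in KO EBs and 1.56 in WT EBs, and Cela2a, with 20.9 in KO EBs and 17.1 in WT EBs. All groups came from C57BL/6 mouse cells. KO EBs and WT EBs were grown as suspended aggregates in a serum-containing fibroblast medium without LIF for 8 to 21 days, and the sources used here do not say on which day either library was taken. KO and WT embryonic stem cells (ESCs), given below only for orientation, were kept naive without serum, with LIF and the inhibitors CHIR99021 and PD0325901. The sources used here name neither the altered part of Mettl3 nor the number of clones behind the KO line. With 1 library per group there is no replicate check: an effect of Mettl3 loss and one of line, day of culture or library cannot be told apart, and "higher" and "lower" describe these libraries.

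Mettl3 catalyses the methylation of adenosine in mRNA to N6-methyladenosine (m6A), in complex with Mettl14 and further subunits. When mouse ESCs aggregate and lose the signals that hold them naive, the outer cells of the body become primitive endoderm. These cells give rise to visceral endoderm, an absorptive epithelium that secretes the carrier and lipid proteins later made by the liver, and to parietal endoderm, which lays down a thick basement membrane. The inner cells pass through primed pluripotency into ectoderm, mesoderm and later mesenchyme, muscle, blood and nerve. A footprint count follows both the amount of an mRNA and its load of ribosomes, and in a whole EB fewer cells of a type and less RNA per cell cannot be told apart.

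Reads on coding sequences numbered 4075850 in KO EBs and 4234361 in WT EBs. A read counts as 1.49 normalised units in KO EBs and 1.56 in WT EBs. Without a read, a gene may still have up to 4.48 units in KO EBs and 4.68 in WT EBs (3 reads per library). Ranges in parentheses after a fold are 95% exact binomial (Clopper-Pearson) intervals of the ratio of reads and cover counting error only. Over all 9265 genes the median log2 ratio of KO EBs over WT EBs, taken on value + 1, was −0.08, with quartiles of −0.59 and 0.56. Higher in KO EBs by 2-fold or more were 1385 genes, 14.9% of those tested, and lower by as much were 1136, or 12.3%. These percentages are the background for every count below. A gene near 0 in the other libraries could pass the filter only through the EB library where it was high. The direction of such a gene was thereby fixed, so a list count that holds such genes is a description and no test. Past 8-fold there were 118 higher and 94 lower genes, and past 16-fold 40 higher and 51 lower.

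The ratio also followed base composition. Genes were ordered by the GC content of their coding sequence and cut into 5 bins of like size. The median log2 ratio of KO EBs over WT EBs was −0.71 in the bin poorest in GC, then −0.31, −0.04, 0.20, and 0.60 in the bin richest in GC. In the poorest bin 3.02% of genes passed 2-fold upwards in KO EBs and 30.8% downwards; in the richest 33.4% passed upwards and 2.86% downwards. The ESC libraries showed the same order over a narrower range, from −0.23 to 0.32. The part of base composition in the results was not tested. Each list is therefore also given with every gene's ratio reduced by the median of its own GC bin, called the GC-adjusted median. On that scale 12.4% of genes passed 2-fold upwards in KO EBs and 7.71% downwards.

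**Figure D1:**
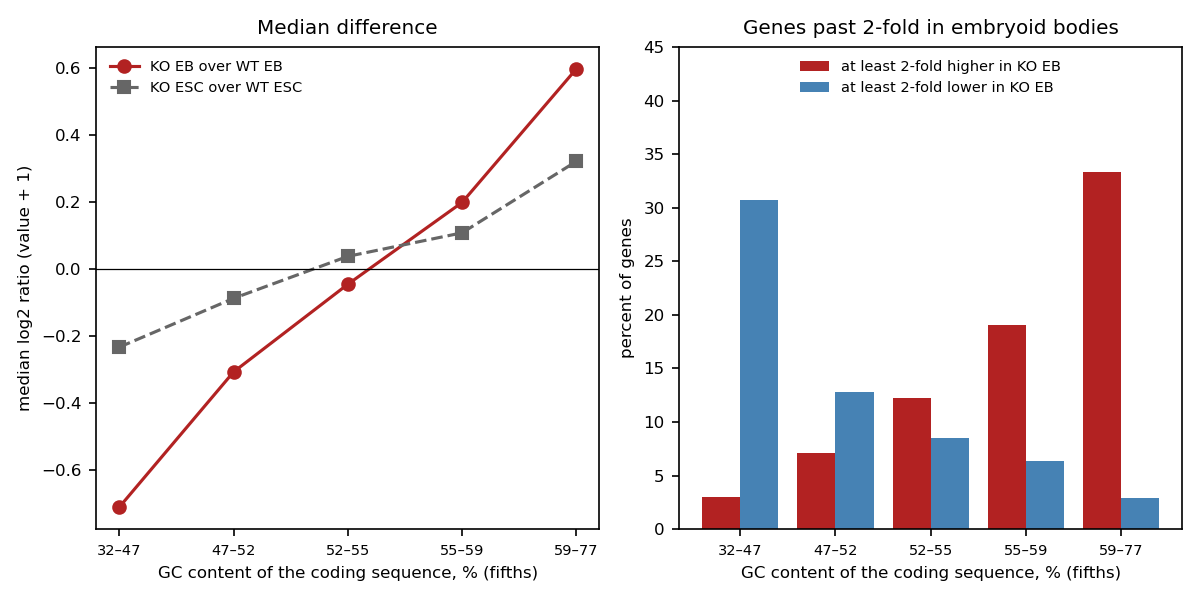
Genes in 5 bins of coding GC content on the horizontal axis of both panels. The left panel plots the median log2 ratio of KO over WT, with EBs as circles and ESCs as squares, which climbs in EBs to 0.60 from −0.71; the right panel plots the percent of genes at least 2-fold higher (red) and lower (blue) in KO EBs.

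Mettl3 itself (chromosome 14, 52294841 to 52308741, build GRCm38) stood at a normalised count of 327 in KO EBs and 429 in WT EBs, from 219 and 275 reads, and was 1.31-fold lower in KO EBs (1.09 to 1.57). Since the altered part of Mettl3 is not named, a count over the full coding sequence is no check of the knockout. Of 17 measured genes of the m6A machinery 0 passed 2-fold upwards and 1 downwards. Their median log2 ratio was −0.03 (GC-adjusted 0.20). The lower gene was Igf2bp3, an RNA-binding protein that stabilises methylated mRNAs, at 515 in KO EBs and 1449 in WT EBs. Mettl14, the partner of Mettl3 in the writer core, stood at 372 in KO EBs, against 673 in WT EBs. Wtap, which holds the writer in nuclear speckles, stood at 978 in KO EBs, against 489 in WT EBs, with 48.2% of its sequence found again elsewhere in the genome (copied, for short).

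Markers of cell types gave the broad picture. The 7 visceral endoderm markers summed to 1359.8 in KO EBs and 43552 in WT EBs, and each of the 7 was lower in KO EBs by more than 2-fold. In ESCs they summed to 134 in KO ESCs and 96.5 in WT ESCs, so KO EBs lay above both ESC libraries as well. The 4 primitive endoderm markers summed to 357 in KO EBs and 3083 in WT EBs. The 6 of 7 parietal endoderm markers with a read summed to 13482 in KO EBs and 60781 in WT EBs. Most of that WT EB sum came from Lama1, at 21662, Lamb1, at 16809, and Col4a1, at 12783. Past 2-fold downwards were 4 of the 6 parietal markers. The others, Sparc and Thbd, stayed within 2-fold, with Thbd at 160 in KO EBs and 185 in WT EBs. Fibroblast or mesenchyme markers went the other way, with sums of 7937 in KO EBs and 1186 in WT EBs, and all 6 of them that passed the filter were at least 2-fold higher in KO EBs; 3 of the 10, Pdgfra, Pdgfrb and Postn, had no read in any library. Pluripotent cell markers summed to 16091 in KO EBs and 10776 in WT EBs, beside 11240.1 in KO ESCs and 16336 in WT ESCs, so that these markers were plentiful in both EB libraries. Epithelium markers were level in sum, at 15395 in KO EBs and 14836 in WT EBs. Cdh1 was higher and Krt8, Krt18 and Epcam lower in KO EBs, each within 2-fold. Endothelial and neural markers summed to 416 in KO EBs and 218 in WT EBs and to 1293 in KO EBs and 703 in WT EBs. Most of these sums came from Tek, at 312 in KO EBs and 154 in WT EBs, and Tubb3, at 1133 and 553. Past 2-fold were 2 of 3 tested endothelial markers, both higher, and 2 of 3 neural ones, 1 higher and 1 lower. The lower one was Sox1, and Cdh5, below the filter, stood at 13.4 in KO EBs and 24.9 in WT EBs. Smooth muscle markers summed to 210.5 in KO EBs and 628 in WT EBs. Cardiomyocyte markers summed to 52.2 in KO EBs and 112 in WT EBs and embryonic blood markers to 14.9 in KO EBs and 4.68 in WT EBs, each over the 3 of 5 genes with a read in any library. No marker of either type passed the filter. Myh7, at 2.99 in KO EBs and 60.8 in WT EBs, and Actc1 were lower in KO EBs. Nkx2-5, at 35.8 in KO EBs and 12.5 in WT EBs, was higher. The blood sum in WT EBs is the value of 3 reads.

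**Figure D2:**
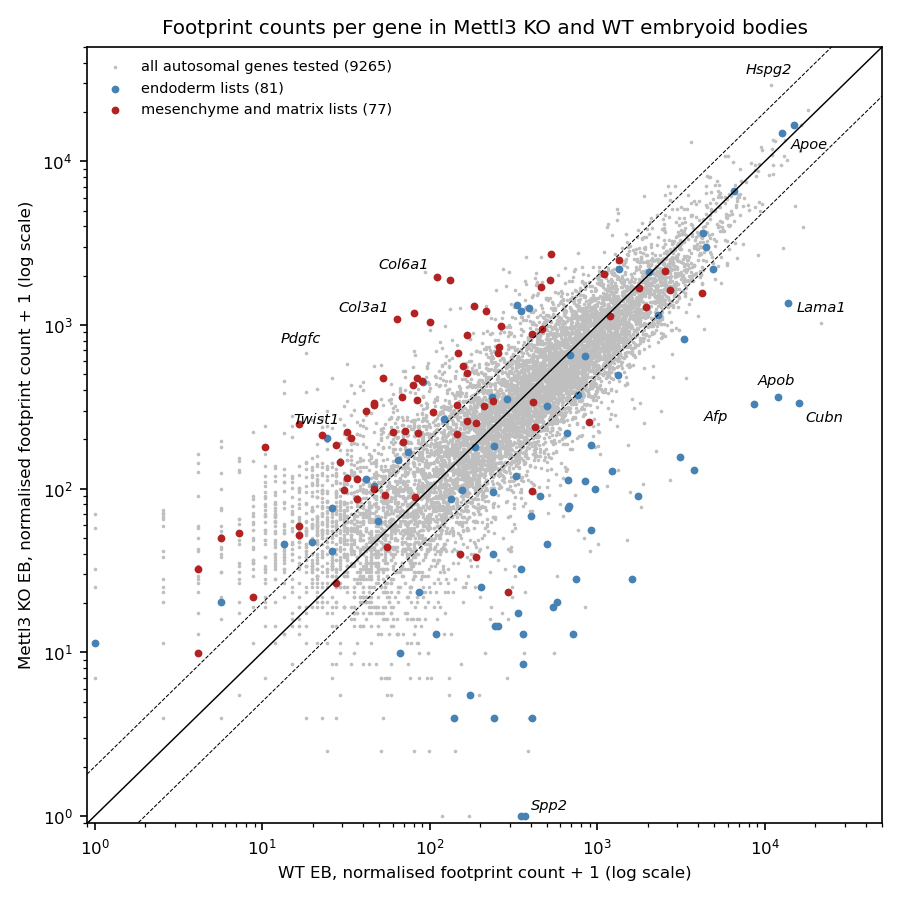
Normalised footprint count + 1 of each of the 9265 genes in KO EBs (vertical, log scale) against WT EBs (horizontal, log scale), with lines at equality and at 2-fold. Genes of the 4 endoderm lists (blue) lie mostly below the lower line and genes of the 3 mesenchyme and matrix lists (red) mostly above the upper one, while Apoe lies near equality.

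The transcription factors that set up endoderm were mostly lower in KO EBs. Of 15 measured factors 2 stood 2-fold or more above WT EBs and 11 2-fold or more below. Their median log2 ratio was −2.74 and the GC-adjusted one −3.16. Gata4 and Gata6, zinc-finger factors that start the primitive endoderm programme, stood at 127 in KO EBs and 1217 in WT EBs and at 112 in KO EBs and 665 in WT EBs. Their folds were 9.59-fold (7.66 to 12.1) and 5.94-fold (4.64 to 7.70) lower in KO EBs. Sox17, the next factor in that programme, stood at 110.5 in KO EBs, against 843 in WT EBs, and Sox7, its relative in early extraembryonic endoderm, at 7.46 in KO EBs, against 357 in WT EBs. Both Sox genes were far lower in KO EBs, by 7.63-fold (5.98 to 9.87) and 47.8-fold (20.2 to 149). In the ESC libraries Gata4, Gata6, Sox17 and Sox7 were all under 50 in KO and WT alike, so Gata4, Gata6 and Sox17 were above the ESC level in both EB libraries. Hnf4a, the nuclear receptor that drives liver-type genes in visceral endoderm, stood at 67.2 in KO EBs, against 399 in WT EBs. The forkhead genes Foxa2, Foxa3 and Foxq1 were 11.2-fold (7.70 to 16.9), 8.42-fold (4.99 to 15.2) and 29.9-fold (14.9 to 70.1) lower in KO EBs. Not every endoderm factor followed. Hhex, at 85.1 in KO EBs and 132 in WT EBs, and Nr5a2, at 178 in KO EBs and 184 in WT EBs, stayed within 2-fold. Cebpa, a leucine-zipper factor of liver and fat, was 2.99-fold higher in KO EBs (1.68 to 5.63) at 74.6 in KO EBs and 24.9 in WT EBs, and fell within 2-fold after GC adjustment.

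Plasma proteins gave the widest differences. Only 20 of 62 listed genes passed the filter, and of these 5 stood 2-fold or more above WT EBs and 12 2-fold or more below, with a median log2 ratio of −1.94 (GC-adjusted −1.74). Some of the 12, among them Spp2, Habp2 and Ttr, passed the filter only through their counts in WT EBs. Their direction was thereby fixed, so the share of lower genes is no test. All 62 listed genes, those below the filter included, together held 0.0743% of gene reads in KO EBs and 0.288% in WT EBs. Alpha-fetoprotein, Afp, the main serum protein of the yolk sac, stood at 328 in KO EBs and 8637 in WT EBs and was 26.3-fold lower in KO EBs (22.98 to 30.2). Per kilobase of coding sequence it ranked 5066 in KO EBs and 53 in WT EBs among 9263 genes, so a gene near the top of WT EBs lay around the middle in KO EBs. Transthyretin, Ttr, the thyroid hormone carrier, stood at 26.9 in KO EBs, against 1612 in WT EBs, and the retinol carrier Rbp4, which Ttr binds in serum, at 16.4 in KO EBs, against 337 in WT EBs. Both chains of fibrinogen that were measured, Fgb at 55.2 in KO EBs and 918 in WT EBs and Fgg at 13.4 in KO EBs and 254 in WT EBs, were lower in KO EBs by 16.6-fold (11.9 to 23.8) and 18.9-fold (9.72 to 42.1). No read of Spp2, a secreted phosphoprotein, or of the serine protease Habp2 was found in KO EBs, against 236 and 224 reads in WT EBs, counts of 368 and 349. Set against 3 reads, KO EBs were lower by at least 82.1-fold for Spp2 and by at least 78.0-fold for Habp2. The antiplasmin Serpinf2 had 2 reads in KO EBs, a count of 2.99, against 242 in WT EBs. Transferrin, Trf, the iron carrier, was 4.97-fold lower in KO EBs (4.08 to 6.08) at 184 in KO EBs and 912 in WT EBs, and clusterin, Clu, a secreted chaperone, was 3.97-fold lower in KO EBs (3.61 to 4.37). Among the genes at least 2-fold higher in KO EBs were Serpinf1, an angiogenesis inhibitor that mesenchyme also makes, at 1324 in KO EBs and 330.4 in WT EBs, and Pzp, Gc and Cpn1 at lower levels. Alb, the albumin gene, had no read in any library.

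The promoters of endoderm genes can be shown beside the values of Gata4 and Gata6. GATA factors bind the word AGATAA, which was sought on both strands in RefSeq windows (GRCm38.p6) of 250 bases before to 50 after each start. Of endoderm genes measured with a window it was in 4 of 8 transcription factors, 3 of 14 plasma protein genes, 1 of 12 lipid genes and 3 of 25 apical genes, against 6.61% of 7416 tested autosomal genes and 12.7% of all 25748 autosomal promoters in the table. The factors were Foxa2, Hnf4a, Tcf7l2 and Nr5a2, of which Nr5a2 was level between the libraries, and the plasma protein genes were Spp2, Serpinf2 and Serpinf1, of which Serpinf1 was higher in KO EBs. Over all tested genes with a window the word was in 8.13% of those at least 2-fold higher in KO EBs and in 7.65% of those at least 2-fold lower, so it did not separate the directions. A match is a description of the letters and not a bound site. Shown are 3 promoters of genes far lower in KO EBs, as the 250 bases before the start, with the word in capitals. It begins 183 bases before the start in Foxa2, 160 in Spp2 and, on the reverse strand, 230 in Serpinf2.
Foxa2 (chr2:148045465-148045714, reverse strand): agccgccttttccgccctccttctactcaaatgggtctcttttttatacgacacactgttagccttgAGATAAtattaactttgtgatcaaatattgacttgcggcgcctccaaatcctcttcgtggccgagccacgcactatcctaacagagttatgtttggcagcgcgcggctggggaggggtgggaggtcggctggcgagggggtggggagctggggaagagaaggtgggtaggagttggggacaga
Spp2 (chr1:88406760-88407009, forward strand): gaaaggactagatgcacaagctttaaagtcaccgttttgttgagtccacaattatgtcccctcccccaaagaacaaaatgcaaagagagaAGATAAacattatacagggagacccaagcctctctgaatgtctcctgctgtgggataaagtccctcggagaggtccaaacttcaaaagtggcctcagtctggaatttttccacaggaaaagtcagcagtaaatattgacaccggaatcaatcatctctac
Serpinf2 (chr11:75439502-75439751, reverse strand): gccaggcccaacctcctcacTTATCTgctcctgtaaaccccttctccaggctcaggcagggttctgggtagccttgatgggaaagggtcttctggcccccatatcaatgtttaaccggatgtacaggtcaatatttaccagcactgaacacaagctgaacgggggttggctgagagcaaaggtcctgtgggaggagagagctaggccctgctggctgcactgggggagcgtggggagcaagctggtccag

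Lipid export genes lay on both sides, more of them lower. Of 16 of 28 listed genes that passed the filter, 3 stood 2-fold or more above WT EBs and 8 2-fold or more below, with a median log2 ratio of −1.36 (GC-adjusted −1.20). Apob, the scaffold of secreted lipoprotein particles, stood at 361 in KO EBs and 12038 in WT EBs, 33.3-fold lower in KO EBs (29.3 to 38.0). Its level was 17.6 in KO ESCs and 17.1 in WT ESCs. Apoa1, the main protein of high-density lipoprotein, stood at 155 in KO EBs, against 3116 in WT EBs, and ranked 4888 in KO EBs and 100 in WT EBs per kilobase. Apoa4, another particle protein, stood at 26.9 in KO EBs, against 745 in WT EBs, and Apoc2, the activator of lipoprotein lipase, at 74.6 in KO EBs, against 670.2 in WT EBs. Soat2, which esterifies cholesterol, was lower by 8.71-fold (6.53 to 11.9) and Dgat2, which completes triglycerides, by 6.10-fold (4.01 to 9.64), whereas Dgat1, an enzyme of the same reaction, was within 2-fold at 352 in KO EBs and 287 in WT EBs. Apoe, a further particle protein, was the highest of all 9263 genes per kilobase in both EB libraries, at 16024 per kilobase in KO EBs and 13577 in WT EBs, and was 1.18-fold higher in KO EBs (1.15 to 1.22). The disulfide isomerase P4hb was level at 6579.7 in KO EBs and 6519 in WT EBs. Abca1, which hands cellular cholesterol to apolipoproteins, was 3.47-fold higher in KO EBs (2.99 to 4.04) at 1218 in KO EBs and 351 in WT EBs, and the lipoprotein receptor Scarb1 stood at 113 in KO EBs and 40.5 in WT EBs.

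Genes of the absorptive surface of visceral endoderm, its receptors, microvillus proteins and transporters, were more often lower than higher. Of 30 measured genes 5 stood 2-fold or more above WT EBs and 16 2-fold or more below, with a median log2 ratio of −1.10 (GC-adjusted −0.92). Cubilin, Cubn, the ligand-binding part of the cubam receptor, stood at 331 in KO EBs and 15999.9 in WT EBs. Amnionless, Amn, which anchors cubilin in the membrane, stood at 89.6 in KO EBs and 1750.2 in WT EBs, and megalin, Lrp2, their large partner, at 1363 in KO EBs and 13679 in WT EBs. The folds lower in KO EBs were 48.3-fold (42.3 to 55.4) for Cubn, 19.5-fold (15.1 to 25.8) for Amn and 10.0-fold (9.38 to 10.8) for Lrp2. Lrp2 was also present in ESCs, with 629 in KO ESCs and 336 in WT ESCs. The brush-border proteins villin, Vil1, and Cdhr2, a microvillar protocadherin, were at 13.4 in KO EBs and 243 in WT EBs and at 2.99 in KO EBs and 139 in WT EBs. The membrane mucin Muc13 stood at 11.9 in KO EBs, against 711 in WT EBs, and the aminopeptidase Enpep had 2 reads in KO EBs, a count of 2.99, against 408 in WT EBs. The membrane-bound carbonic anhydrase Car4 stood at 129.9 in KO EBs, against 3761 in WT EBs, and the galectin Lgals2 at 19.4 in KO EBs, against 570.4 in WT EBs. Among iron genes the uptake receptor Tfrc was 2.24-fold lower in KO EBs (2.10 to 2.38) and the exporter Slc40a1 2.76-fold lower in KO EBs (2.12 to 3.63), while Tfr2, the transferrin receptor of liver, was 8.62-fold higher in KO EBs (5.04 to 15.8) at 202 in KO EBs and 23.4 in WT EBs. Also higher in KO EBs were the neonatal Fc receptor Fcgrt, at 449 in KO EBs and 90.4 in WT EBs, and the aminopeptidase Anpep, at 1270.3 in KO EBs and 391 in WT EBs. Dab2, the adaptor of cubilin and megalin, had no read in any library.

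Lysosomal genes, which digest what the absorptive cells take up, moved both ways. Of 47 measured, 7 stood 2-fold or more above WT EBs and 4 2-fold or more below, with a median log2 ratio of −0.06 (GC-adjusted 0.16) and 1.47% of gene reads in KO EBs and 1.43% in WT EBs. Neither share was above that of all genes, 14.9% higher and 12.3% lower, so the list as a whole did not stand out. Of the 4 lower members 3 were cysteine proteases. Cathepsin H, Ctsh, was at 112 in KO EBs, against 2707 in WT EBs, and at 13.9 in KO ESCs and 14.8 in WT ESCs. Cathepsin C, Ctsc, stood at 470.2 in KO EBs, against 3373 in WT EBs, and legumain, Lgmn, at 2326 in KO EBs, against 5977 in WT EBs. The related cathepsins Ctsb and Ctsl were within 2-fold, at 4123 in KO EBs and 3606 in WT EBs and at 5460.2 in KO EBs and 9636 in WT EBs. Higher members included arylsulfatase B, Arsb, at 243 in KO EBs and 29.6 in WT EBs, alpha-iduronidase, Idua, at 1284 in KO EBs and 315 in WT EBs and beta-glucuronidase, Gusb, at 1527 in KO EBs and 433 in WT EBs.

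**Figure D3:**
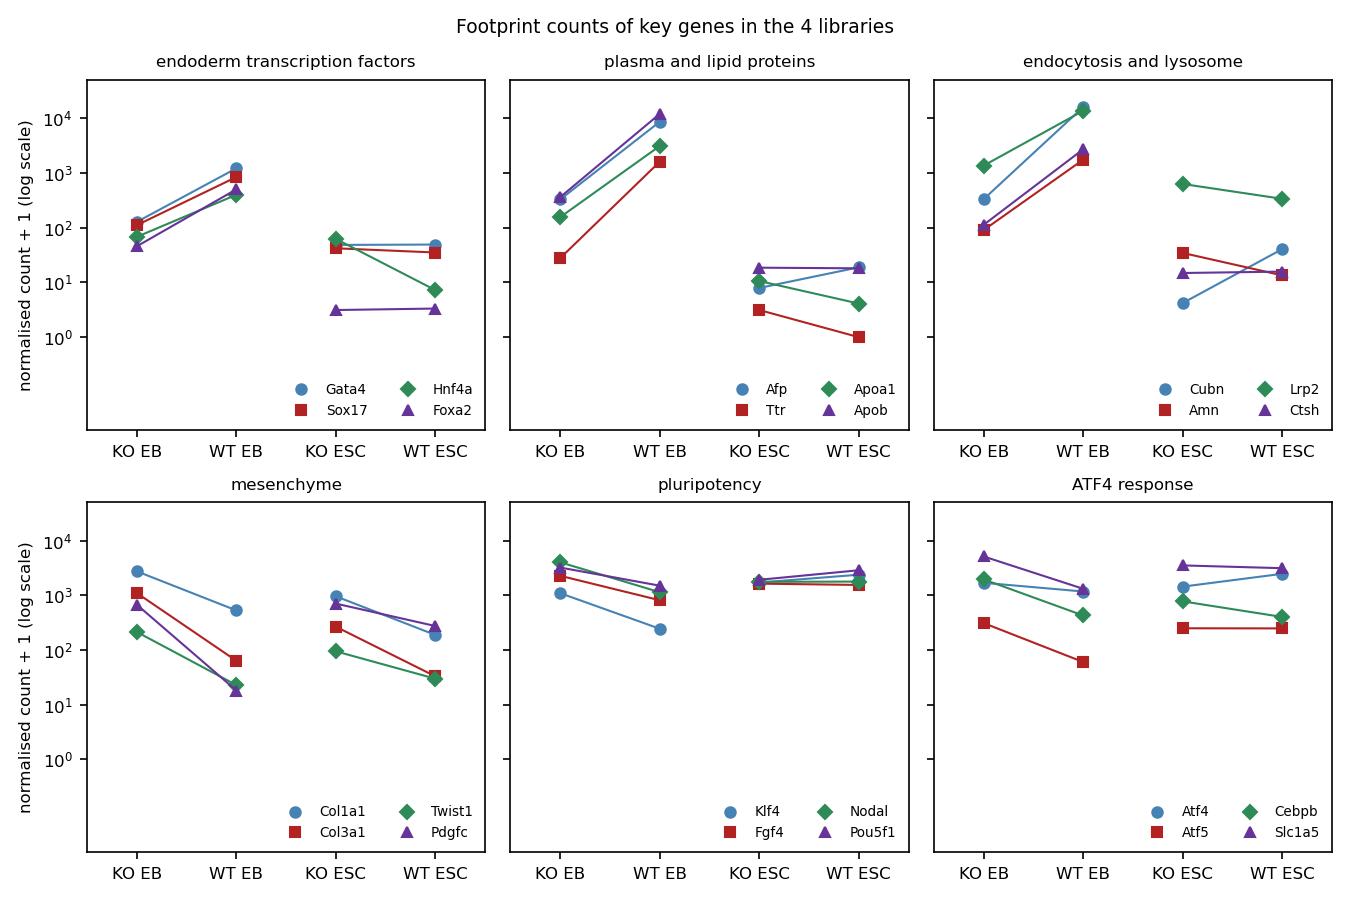
Normalised footprint count + 1 (log scale) of 24 genes in KO EBs, WT EBs, KO ESCs and WT ESCs, 1 library each, with lines joining the libraries of a stage. Endoderm genes such as Apob (361 in KO EBs, 12038 in WT EBs, 17.6 in KO ESCs and 17.1 in WT ESCs) are highest in WT EBs, with KO EBs above both ESC libraries, whereas collagen genes such as Col3a1 are higher in KO at both stages.

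Basement membrane genes split by chain. Of 22 measured genes 7 stood 2-fold or more above WT EBs and 8 2-fold or more below, and the median log2 ratio was 0.24 (GC-adjusted −0.16). Laminin and collagen IV chains that parietal endoderm secretes were among the lower. Lama1, the laminin alpha chain of the early embryo, stood at 1033 in KO EBs and 21662 in WT EBs, 21.0-fold lower in KO EBs (19.4 to 22.7). Lamb1, its beta chain partner, stood at 3970.5 in KO EBs, against 16809 in WT EBs, and the collagen IV chains Col4a1 and Col4a2 at 2949.5 in KO EBs and 12783 in WT EBs and at 2689.8 in KO EBs and 9152 in WT EBs. Their folds were 4.23-fold (4.06 to 4.42), 4.33-fold (4.13 to 4.55) and 3.40-fold (3.23 to 3.59) lower in KO EBs. Both collagen IV chains differed the other way in ESCs, with Col4a1 at 884 in KO ESCs and 422 in WT ESCs and Col4a2 at 911 in KO ESCs and 295 in WT ESCs. Lamc1, the gamma chain common to most laminins, was 1.40-fold lower in KO EBs (1.36 to 1.44), and the linker nidogen Nid2 was level at 8787 in KO EBs and 9083 in WT EBs. Sparc, a calcium-binding matrix protein that parietal endoderm makes in quantity, stood at 5238 in KO EBs and 8686 in WT EBs. Other chains were higher in KO EBs. Lama5, the alpha chain widespread in later epithelia, stood at 13047 in KO EBs and 3600.2 in WT EBs, 3.62-fold higher in KO EBs (3.46 to 3.80). Lama4 of vessels and muscle and Lamb2 were higher by 5.04-fold (2.88 to 9.44) and 2.38-fold (2.17 to 2.62). Perlecan, Hspg2, the heparan sulfate proteoglycan, stood at 29435 in KO EBs, against 10822 in WT EBs, and Col15a1, which links basement membrane to the collagen beneath, at 400.0 in KO EBs, against 39.0 in WT EBs. Per kilobase Lama1 ranked 6163 in KO EBs and 350 in WT EBs, whereas Lama5 ranked 1024 in KO EBs and 3868 in WT EBs, so the order of these alpha chains was opposite in the libraries.

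**Figure D4:**
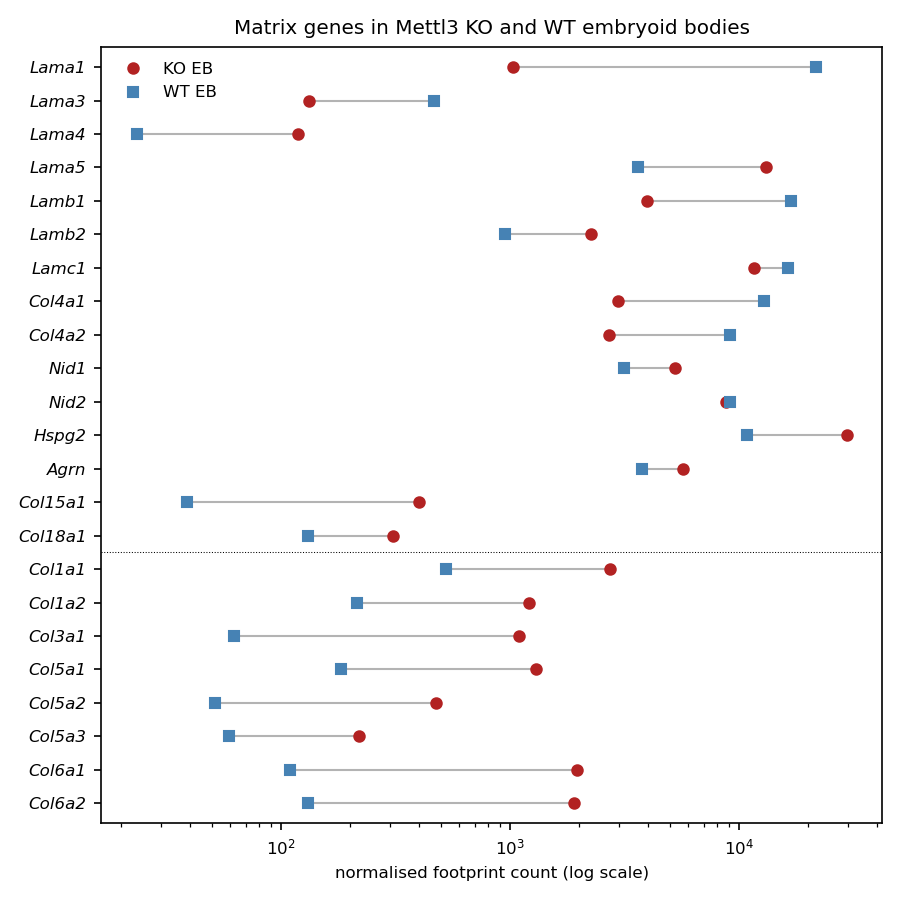
Normalised footprint count (log scale) of basement membrane genes (above the dotted line) and fibrillar and collagen VI genes (below it), with KO EBs as red circles and WT EBs as blue squares, 1 library each. Lama1, Lamb1, Col4a1 and Col4a2 lie to the left in KO EBs, and Lama5, Hspg2, Col15a1 and each interstitial collagen shown lie to the right.

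Interstitial matrix genes were mostly higher in KO EBs. Of 28 measured collagens and collagen-processing genes 18 stood 2-fold or more above WT EBs and 3 2-fold or more below, with a median log2 ratio of 1.87 (GC-adjusted 1.68). All 45 listed genes, those below the filter included, held 0.392% of gene reads in KO EBs and 0.207% in WT EBs. The collagen I chains Col1a1 and Col1a2, of skin, bone and tendon, stood at 2733 in KO EBs and 527 in WT EBs and at 1209 in KO EBs and 215 in WT EBs, with KO EBs higher by 5.19-fold (4.62 to 5.84) and 5.62-fold (4.69 to 6.78). Collagen III, Col3a1, stood at 1094 in KO EBs, against 62.3 in WT EBs, and the collagen V chains Col5a1 and Col5a2, which seed collagen fibrils, at 1302 in KO EBs and 182 in WT EBs and at 476 in KO EBs and 51.4 in WT EBs. Collagen VI, a beaded filament around cells, was higher too, with Col6a2 at 1891 in KO EBs and 131 in WT EBs and Col6a1 18.0-fold (14.2 to 23.2) higher. In ESCs Col1a1 stood at 954 in KO ESCs and 187 in WT ESCs, Col3a1 at 265 in KO ESCs and 31.9 in WT ESCs and Col6a1 at 50.1 in KO ESCs and 17.1 in WT ESCs, and the ESC median of the list was 1.37. The 3 lower genes were P3h2, a prolyl hydroxylase that acts on collagen IV, at 22.4 in KO EBs and 293 in WT EBs, the crosslinking enzyme Loxl2, with 81.1% of its sequence copied elsewhere, and P4ha1, a subunit of the collagen prolyl hydroxylase, at 1558 in KO EBs and 4239 in WT EBs. Pcolce, an enhancer of procollagen cleavage, stood at 1703 in KO EBs, against 463 in WT EBs. The collagen chaperone Serpinh1 and the collagen VI chain Col6a3 had no read in any library.

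Elastic fibre and matricellular proteins followed, with 24 of 34 measured genes 2-fold or more above WT EBs and 3 2-fold or more below, a median of 1.44 and a GC-adjusted median of 1.22. Matrix Gla protein, Mgp, which blocks calcification, stood at 1185 in KO EBs and 79.5 in WT EBs, 14.9-fold higher in KO EBs (11.2 to 20.2). Fibulin 5, Fbln5, an organiser of elastic fibres, stood at 179 in KO EBs, against 9.35 in WT EBs, and thrombospondin 2, Thbs2, an adhesive glycoprotein of mesenchyme, at 427 in KO EBs, against 77.9 in WT EBs. The microfibril genes Fbn1 and Fbn2 were 5.12-fold (3.85 to 6.93) and 15.9-fold (8.43 to 33.8) higher. The 3 lower genes were the proteoglycan-cutting proteases Adamts1, at 95.5 in KO EBs and 407 in WT EBs, and Adamts9, at 255 in KO EBs and 893 in WT EBs, and the hyaluronan synthase Has2, at 38.8 in KO EBs and 151 in WT EBs. Ccn2 and Ccn1, matrix proteins that YAP induces, were within 2-fold at 1626 in KO EBs and 2731 in WT EBs and at 2149 in KO EBs and 2542 in WT EBs. Fibronectin, Fn1, had no read in any library.

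Transcription factors of mesenchyme were low but mostly higher in KO EBs. Only 15 of 53 listed factors passed the filter. Of these 11 stood 2-fold or more above WT EBs and 0 2-fold or more below, with a median log2 ratio of 1.84. Their coding sequences are rich in GC, and the GC-adjusted median was 1.25. Twist1, a helix-loop-helix factor of mesenchyme, stood at 212 in KO EBs and 21.8 in WT EBs, 9.71-fold higher in KO EBs (5.60 to 18.2). Tcf15, a paraxial mesoderm factor, stood at 675 in KO EBs, against 147 in WT EBs, and Hand1, of extraembryonic and lateral mesoderm, at 299 in KO EBs, against 40.5 in WT EBs. Snai2, a repressor of epithelial genes, stood at 49.3 in KO EBs, against 4.68 in WT EBs, while its relative Snai1 was within 2-fold at 339 in KO EBs and 411 in WT EBs. Surface receptors of mesenchyme were higher in part, 14 of 34 past 2-fold upwards and 2 downwards; the median was 0.60 (GC-adjusted 0.65). Ddr2, a receptor for fibrillar collagen, stood at 157 in KO EBs and 20.3 in WT EBs, the cadherin Cdh11 at 269 in KO EBs and 57.7 in WT EBs and the glycoprotein Thy1 at 715 in KO EBs and 249 in WT EBs. Notch1 and Notch3 were higher by 2.68-fold (2.53 to 2.83) and 2.46-fold (2.28 to 2.65). The 2 lower genes were the cadherin Cdh6, at 28.4 in KO EBs and 570.4 in WT EBs, and Tgfbr3, a co-receptor of TGF-beta, at 173 in KO EBs and 703 in WT EBs. Among integrin chains Itga11 and Itga9 were higher, at 73.1 in KO EBs and 9.35 in WT EBs and at 400.0 in KO EBs and 70.1 in WT EBs, while Itgb1, Itga5 and Itgav stayed within 2-fold.

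Secreted signals were more often higher than lower. Of 53 measured of 104 listed growth factors and antagonists 27 stood 2-fold or more above WT EBs and 9 2-fold or more below, with a median log2 ratio of 1.01 (GC-adjusted 0.62). Pdgfc, a ligand of PDGF receptors, stood at 670.2 in KO EBs and 17.1 in WT EBs, beside 702 in KO ESCs and 272 in WT ESCs. Inhbb, a subunit of activin B and inhibin B, stood at 385 in KO EBs and 12.5 in WT EBs, but at 272 in KO ESCs and 244 in WT ESCs. Thus Pdgfc and Inhbb were low in WT EBs alone among the 4 libraries. Gdf15, a stress-induced hormone, stood at 1249 in KO EBs, against 131 in WT EBs, Grem1, an antagonist of BMPs, at 719 in KO EBs, against 117 in WT EBs, and Sfrp1, an antagonist of Wnt, at 2596 in KO EBs, against 459.8 in WT EBs. Nodal, the ligand that patterns the early embryo, was 3.52-fold higher in KO EBs (3.24 to 3.83) at 3996 in KO EBs and 1135 in WT EBs, and its feedback inhibitors Lefty1 and Lefty2 stood at 1457 in KO EBs and 519 in WT EBs and at 1415 in KO EBs and 371 in WT EBs; 39.1% of each Lefty sequence is copied elsewhere. The 9 lower members included Ihh, the hedgehog ligand of visceral endoderm, at 20.9 in KO EBs and 307 in WT EBs, and Bmp2, made by the same tissue, at 8.96 in KO EBs and 85.7 in WT EBs. Nrg1, at 29.9 in KO EBs and 229 in WT EBs, Dkk1, a Wnt antagonist, at 26.9 in KO EBs and 140.3 in WT EBs, and the BMP antagonist Nog, at 19.4 in KO EBs and 96.6 in WT EBs, were lower as well. Hhip, a receptor that binds and restrains hedgehog ligands, was among the 15 highest genes, at 389.6 in KO EBs and 17.1 in WT EBs.

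Muscle genes were thinly covered. Of 26 of 52 listed genes that passed the filter, 2 stood 2-fold or more above WT EBs and 8 2-fold or more below, with a median log2 ratio of −0.49 (GC-adjusted −0.67). Ankrd1, a nuclear and sarcomeric protein that YAP and muscle factors induce, had no read in KO EBs, against 110 reads (171 normalised) in WT EBs. Set against 3 reads, KO EBs were lower by at least 38.3-fold. The myosin light chains Myl9 of smooth muscle and Myl3 of heart stood at 71.6 in KO EBs and 393 in WT EBs and at 67.2 in KO EBs and 301 in WT EBs. Smooth-muscle actin, Acta2, and transgelin, Tagln, were lower in KO EBs, at 98.5 in KO EBs and 288 in WT EBs and at 103 in KO EBs and 299 in WT EBs, though in ESCs Acta2 was at 397 in KO ESCs and 153 in WT ESCs. Casq2, the calcium store protein of cardiac muscle, went the other way, at 179 in KO EBs and 4.68 in WT EBs. The non-muscle myosins Myh9 and Myh10 stayed within 2-fold. The CArG box, which serum response factor binds, was sought in the same promoter windows and held by 5 of 24 contractile genes, against 1.42% of tested genes, 0.765% of those at least 2-fold higher in KO EBs and 1.91% of those at least 2-fold lower. The 5 were Cnn2, Myl9, Srf, Myl3 and Myl7, of which Cnn2, Myl9 and Myl3 passed 2-fold downwards. It is shown in capitals for Myl9 and Myl3, where it begins 161 and 85 bases before the start.
Myl9 (chr2:156775214-156775463, forward strand): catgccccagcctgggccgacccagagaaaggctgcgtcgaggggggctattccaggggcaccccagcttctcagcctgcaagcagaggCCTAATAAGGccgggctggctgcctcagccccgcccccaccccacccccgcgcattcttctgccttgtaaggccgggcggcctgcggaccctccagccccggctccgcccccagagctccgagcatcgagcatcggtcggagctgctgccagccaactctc
Myl3 (chr9:110763428-110763677, forward strand): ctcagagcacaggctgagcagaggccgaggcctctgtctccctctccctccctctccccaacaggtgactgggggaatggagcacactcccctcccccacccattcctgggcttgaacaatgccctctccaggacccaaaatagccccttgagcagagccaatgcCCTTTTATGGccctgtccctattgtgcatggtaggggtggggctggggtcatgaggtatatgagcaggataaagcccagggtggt

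Pluripotency genes were retained in both EB libraries and some stood higher in KO EBs. Of 25 measured naive genes 5 stood 2-fold or more above WT EBs and 1 2-fold or more below, with a median log2 ratio of 0.16 (GC-adjusted 0.27), against an ESC median of −0.48. The share of genes higher by 2-fold, 5 of 25, is near the 14.9% of all genes. Klf4 and Klf2, zinc-finger factors of the naive state, stood at 1088 in KO EBs and 243 in WT EBs and at 6444 in KO EBs and 2719.6 in WT EBs. In ESCs they stood at 1705 in KO ESCs and 2371 in WT ESCs and at 5001 in KO ESCs and 3245 in WT ESCs. Fgf4, the signal by which epiblast cells prime endoderm, stood at 2263 in KO EBs, against 809 in WT EBs. Nanog and Sox2 were within 2-fold, at 4675 in KO EBs and 3691 in WT EBs and at 4524 in KO EBs and 3067 in WT EBs, and Pou5f1, or Oct4, with 25.3% of its sequence copied, stood at 3205 in KO EBs, against 1493 in WT EBs. Dppa3, an oocyte and germ cell factor, was the 1 naive gene lower by 2-fold, at 134 in KO EBs and 425 in WT EBs, with 65.3% copied. Of 18 core genes 3 were higher and 3 lower by 2-fold, with a median of 0.10 (GC-adjusted 0.02). The lower ones were Podxl, an apical sialomucin that polarised epithelia also carry, at 942 in KO EBs and 4300.0 in WT EBs, the telomere and replication factor Rif1 and the RNA-binding protein Lin28a, at 545 in KO EBs and 1216 in WT EBs. Formative and primed genes split, with 7 of 21 higher and 5 lower by 2-fold, a median of 0.31 and a GC-adjusted median of −0.26. Gsc, a homeobox factor of the organiser, stood at 82.1 in KO EBs and 12.5 in WT EBs, and Cyp26a1, which degrades retinoic acid, at 94.0 in KO EBs, against 1562 in WT EBs.

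Amino acid response genes, which the factor ATF4 induces when uncharged tRNA or stress slows initiation, tended to be higher in KO EBs. Of 40 measured 15 stood 2-fold or more above WT EBs and 1 2-fold or more below. The median log2 ratio was 0.74, against −0.36 in ESCs. After GC adjustment the median was 0.50, and 9 genes were higher and 0 lower. Atf4 itself was within 2-fold at 1687 in KO EBs and 1169 in WT EBs. The companion leucine-zipper factors Atf5, at 309 in KO EBs and 59.2 in WT EBs, and Cebpb, at 1949 in KO EBs and 425 in WT EBs, were higher by 5.22-fold (3.68 to 7.58) and 4.58-fold (4.02 to 5.24), and Ddit3, or CHOP, stood at 258 in KO EBs, against 95.1 in WT EBs. The glutamine carrier Slc1a5 stood at 5109 in KO EBs and 1311 in WT EBs, the leucine carrier Slc7a5 at 5806 in KO EBs and 2709 in WT EBs and the cystine carrier Slc7a11 at 44.8 in KO EBs and 9.35 in WT EBs. Chac1, which degrades glutathione, was 2.18-fold higher in KO EBs (1.87 to 2.54), and Trib3, a pseudokinase, 2.42-fold higher in KO EBs (2.13 to 2.76). The 1 gene lower by 2-fold was Atf3, with a log2 ratio of −1.29. Some other targets were within 2-fold. Asparagine synthetase, Asns, stood at 6262 in KO EBs and 6868 in WT EBs, and the tRNA synthetases Eprs and Iars at 3727 in KO EBs and 5724 in WT EBs and at 2489.8 in KO EBs and 3966 in WT EBs. The composite word TGATGNAA, which dimers of ATF4 and C/EBP proteins bind, was on either strand in 16 of 35 of these genes with a window, against 2.44% of tested genes. Of these 16 genes 5 passed 2-fold upwards and 1 downwards, and 7 lay below 0. Over all tested genes with a window the word was in 3.15% of those at least 2-fold higher in KO EBs and in 2.70% of those at least 2-fold lower. It is shown in capitals for Slc7a11, at 66 bases (forward) and 47 bases (reverse) before the start, and for Chac1, at 193 bases (reverse).
Slc7a11 (chr3:50443614-50443863, reverse strand): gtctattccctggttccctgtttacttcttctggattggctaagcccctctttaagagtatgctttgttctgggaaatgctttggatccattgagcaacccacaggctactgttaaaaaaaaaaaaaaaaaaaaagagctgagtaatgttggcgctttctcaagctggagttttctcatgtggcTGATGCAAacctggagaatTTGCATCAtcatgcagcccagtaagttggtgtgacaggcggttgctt
Chac1 (chr2:119350992-119351241, forward strand): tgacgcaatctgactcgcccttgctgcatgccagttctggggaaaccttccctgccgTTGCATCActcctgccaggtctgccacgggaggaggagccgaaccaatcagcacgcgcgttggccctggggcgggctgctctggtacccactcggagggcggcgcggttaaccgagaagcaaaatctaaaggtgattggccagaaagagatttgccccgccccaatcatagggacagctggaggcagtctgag

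Lists of other lineages held genes on both sides. Of 26 trophoblast and simple epithelium genes 3 were higher and 6 lower by 2-fold, with a median of −0.36 (GC-adjusted −0.20). The tight-junction gene Cldn6 stood at 666 in KO EBs and 2801 in WT EBs, the desmosome gene Dsp at 312 in KO EBs and 1649 in WT EBs and the epithelial splicing factor Esrp1 at 287 in KO EBs and 1197 in WT EBs, whereas E-cadherin, Cdh1, stood at 9946 in KO EBs and 6469 in WT EBs. Ascl2, a trophoblast factor and Wnt target, was 7.41-fold higher in KO EBs (5.42 to 10.3). Of 15 measured blood and endothelial genes 7 were higher and 2 lower, with a median of 0.61 (GC-adjusted 0.41). The VEGF receptor Kdr stood at 47.8 in KO EBs and 10.9 in WT EBs and Sox18 of endothelium at 74.6 in KO EBs and 4.68 in WT EBs, while the decoy receptor Flt1 stood at 169 in KO EBs and 564 in WT EBs. Neural genes had a median of −0.29 (GC-adjusted −0.60), with 3 of 17 higher and 2 lower; Sox1 of neuroectoderm stood at 2.99 in KO EBs and 26.5 in WT EBs and the neuronal tubulin Tubb3 at 1133 in KO EBs and 553 in WT EBs, with 31.7% copied.

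Signalling targets were mixed. Wnt targets had 6 of 12 genes higher and 2 lower by 2-fold, with a median of 0.98 (GC-adjusted 0.59). Notum, a feedback inhibitor that strips the lipid from Wnt, stood at 413 in KO EBs and 65.5 in WT EBs, whereas the feedback gene Axin2 stood at 76.1 in KO EBs and 109 in WT EBs. ERK targets had 5 of 22 higher and 2 lower and a median of −0.11 (GC-adjusted −0.37). Dusp6, a phosphatase of ERK, stood at 558 in KO EBs and 1569 in WT EBs, and Egr1, an immediate early factor, at 229.9 in KO EBs and 85.7 in WT EBs. Targets of p53 had 4 of 30 higher and 1 lower, with a median of 0.46 (GC-adjusted 0.35), and 23 of 30 above 0, where 46.1% of all genes lay above 0. Phlda3, a p53 target that restrains AKT, was 2.33-fold higher in KO EBs (2.07 to 2.62). Trp53, with 37.3% of its sequence copied, stood at 77.6 in KO EBs and 204 in WT EBs.

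Several lists of general metabolism lay near equality. Oxidative phosphorylation genes, chosen by name pattern with their assembly factors, had a median of 0.00 (GC-adjusted 0.10), with 70 of 77 within 2-fold. Mitochondrial ribosomal proteins had a median of 0.04 (GC-adjusted 0.16), with 67 of 72 within 2-fold. Cholesterol and fatty acid synthesis genes had a median of 0.02 (GC-adjusted 0.18), with 27 of 32 within 2-fold; Acacb, a carboxylase that restrains fatty acid oxidation, stood at 1314 in KO EBs and 217 in WT EBs. Translation factors had a median of −0.10 (GC-adjusted 0.00), with 34 of 38 within 2-fold. In glycolysis and hypoxia 0 of 23 genes were higher and 5 lower by 2-fold, with a median of −0.07 (GC-adjusted −0.31). The oxygen-sensing factor Hif1a stood at 1296 in KO EBs and 3047 in WT EBs and its relative Epas1 at 482 in KO EBs and 2143 in WT EBs. Cell cycle genes had a median of −0.37 (GC-adjusted −0.24), with 3 of 52 higher and 9 lower. The mitotic kinesin Kif11 stood at 929.9 in KO EBs and 3052 in WT EBs and the retinoblastoma gene Rb1 at 185 in KO EBs and 661 in WT EBs. The higher ones were the cyclins Ccnd1 and Ccnd2, at 1418 in KO EBs and 625 in WT EBs and at 673 in KO EBs and 232 in WT EBs, and their kinase Cdk6. Cytoplasmic ribosomal proteins passed 2-fold upwards in 23 of 59 cases and downwards in 0, around a median of 0.54 (GC-adjusted 0.76). Their median member has 94.4% of its sequence copied, and reads without a unique place made up 53.1% of reads in KO EBs and 51.7% in WT EBs. These counts rest on small unique stretches at most. The highest members, Rpl21, Rpl5 and Rpsa, have no unique window of 28 nt.

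**Figure D5:**
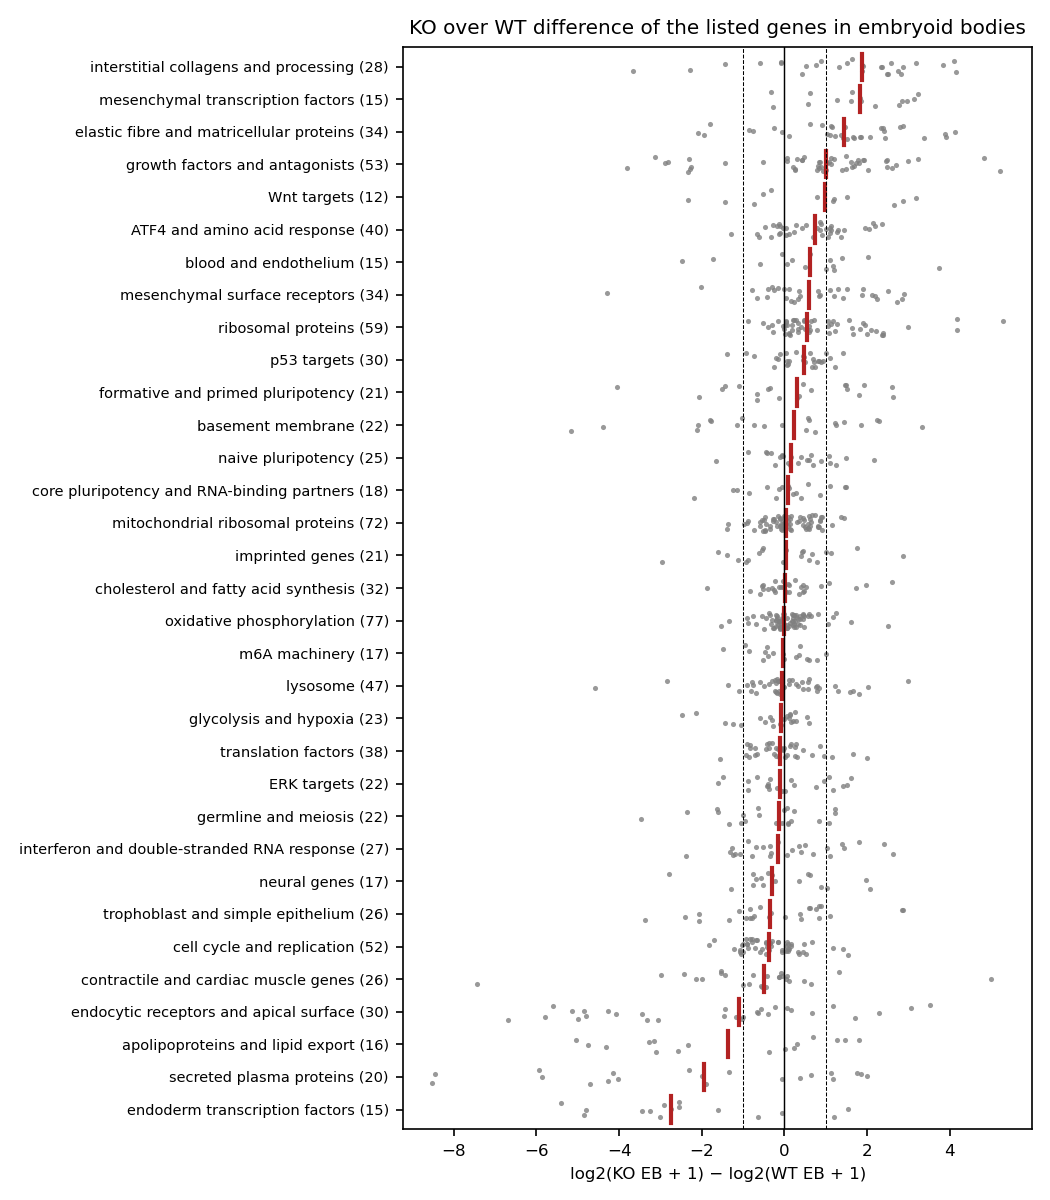
Log2 ratio of KO EBs over WT EBs (value + 1) for every measured member of the 33 lists, 1 grey point per gene, with the list median as a red bar, the number measured in parentheses, and dashed lines at 2-fold. Medians run from 1.87 for interstitial collagens to −2.74 for endoderm transcription factors.

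At both ends of the range stood genes that no list holds. Among the 15 lowest genes with a count of at least 100 in either EB library were, besides those named, Ugt2b34, a glucuronosyltransferase, at 2.99 in KO EBs, against 389.6 in WT EBs, Abcc2, which exports bile conjugates, at 8.96 in KO EBs, against 552 in WT EBs, and Hsd17b2, a steroid dehydrogenase, at 1.49 in KO EBs, against 140.3 in WT EBs. Gkn2, a gastrokine, had no read in KO EBs, against 75 reads, a count of 117, in WT EBs, and the neuronal protease gene Prss12 stood at 17.9 in KO EBs and 848 in WT EBs. The 15 lowest were all under 50 in each ESC library. Among the 15 highest, besides Pdgfc, Casq2, Inhbb and Hhip, were Fat2, a giant protocadherin, at 2117 in KO EBs and 92.0 in WT EBs, Sting1, the adaptor of cytosolic DNA sensing, at 239 in KO EBs and 9.35 in WT EBs, and Napsa, an aspartic protease, at 194 in KO EBs and 4.68 in WT EBs. Col20a1, Prrt3, Tmem266, Mzb1, Dmgdh, Tnfrsf8 and Tescl stood between 124 and 451 in KO EBs, against 3.12 to 12.5 in WT EBs. Rpl21, the top gene, is copied over its whole length.

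The EB and ESC comparisons share no library and can be set side by side, but they need not be independent. A difference between the KO and WT lines could recur at both stages, and the ratio followed GC content in the same order at both. The part of either in the overlap was not tested. Of the 1385 genes at least 2-fold higher in KO EBs, 527 were also at least 2-fold higher in KO ESCs, which is 38.1% of the EB genes and 53.5% of the 985 ESC genes. In ESCs 10.6% of all genes passed 2-fold upwards in KO and 4.08% downwards. Of the 1136 lower in KO EBs 137 were also lower in KO ESCs, 12.1% of the EB genes and 36.2% of the 378 ESC genes. The endoderm lists had ESC medians of −0.09 for transcription factors, −0.06 for plasma proteins, −0.19 for lipid export and −0.05 for the apical surface. For elastic fibre and matricellular proteins the ESC median was 1.50.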

How the data were processed

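Footprints were measured in 4 libraries, 1 each of KO EBs, WT EBs, KO ESCs and WT ESCs, grouped by their titles. For each RefSeq coding sequence the authors deposited a signal, the read count divided by 1 size factor per library. The build was mm10 and the tools HTSeq 0.6.0, TopHat2 2.0.10, CASAVA 1.8.2, DESeq and Bowtie, all per the submitters' processing notes; the sources used here do not state how strand, isoforms and multiple alignments were handled. Within a tolerance of 0.01 read 100% of deposited values were whole multiples of 1 step per library, so read counts were recovered. Entries that name no gene (no feature, ambiguous, not unique) held 71.6% of reads in KO EBs and 68.7% in WT EBs and were left out.

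Of 27442 coding sequences 27083 matched a symbol in a GRCm38.p6 table, the same assembly as mm10; sequences were summed per symbol. Genes on X or Y (336 past the filter) and genes without a chromosome (69) were left out. The log2 ratio used a pseudocount of 1, which understates the difference of low genes, and a gene was called at 2-fold. Such an EB comparison has no test. A fit of all 4 libraries (stage plus genotype, 1 residual degree of freedom) on the recovered counts, run with edgeR 4.0.16, called 0 of 9265 genes for genotype at an adjusted p under 0.05, with 1492 at an unadjusted p under 0.05 (911 higher, 581 lower in KO); the smallest adjusted p was 0.09829. DESeq2 1.42.0 called 306 (240 higher, 66 lower). This fit averages EBs and ESCs and is not a test of the EB comparison. On simulated counts of 9670 genes, X, Y and unplaced ones included, with 200 changed edgeR recovered 199 with 8 false calls and DESeq2 181 with 0. The simulated counts held no difference between the stages, and their genotype changes were equal at both. They therefore do not show how the fit fares on these libraries, where the stages differ. Scripts ran in Python 3.11.15 with pandas 2.3.3 and in R 4.3.3.

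Every 28-nt window of a coding sequence was searched for copies in the genome; 7995 of 9263 genes had under 10% of windows copied. Of 1499 listed autosomal genes 970 were tested, 287 were below the filter and 242 had no read in any library. Of those without a read 218 have 2 or more coding sequence entries. Whether reads shared by such entries were set aside as ambiguous was not tested, so a gene without a read is not taken as absent. Members and lists were chosen with earlier results of these data known. Named in the text are Mettl3, the 15 genes at the top and 15 at the bottom of the ratio with a larger EB count of at least 100, marked key members of each list, and the 6 highest and 6 lowest members of each list with a larger EB count of at least 50, from which those of clearest function are printed. Other members, such as Clu, Vil1 or Nog, were picked for their function and after their values were seen. A promoter motif planned for the endoderm lists and a few named genes are not reported here.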

Additional observations from a re-analysis of the deposited data

Results flagged for a closer look

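Of the genes named by the rule for named genes, 6 differed at least 2-fold between KO and WT in opposite directions at the 2 stages. With 1 library per group the difference between the stages was not tested. The collagen IV chains Col4a1 and Col4a2 had log2 ratios of −2.12 and −1.77 for KO EBs over WT EBs, and of 1.07 and 1.62 for KO ESCs over WT ESCs. Both chains stood highest in WT EBs among the 4 libraries.

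Smooth-muscle actin, Acta2, had a log2 ratio of −1.54 in EBs and 1.37 in ESCs. The Nodal inhibitor Lefty2 had 1.93 in EBs and −1.42 in ESCs, while its neighbour and close copy Lefty1 had 1.49 in EBs and 0.58 in ESCs; 39.1% of each coding sequence is copied elsewhere. The ribosomal protein genes Rpl5 and Rpsa had 4.19 and 4.18 in EBs, and −1.66 and −1.64 in ESCs. Every 28-nt window of both coding sequences has a copy elsewhere in the genome.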

How the results depend on the processing

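No paired analysis was possible because each group has 1 library. The median log2 ratio changed sign under at least 1 alternative in 15 of 33 lists, 0 of them with a median of 1 or more in size. With GC adjustment 5 did: basement membrane to −0.16, formative and primed genes to −0.26, lysosome to 0.16, m6A machinery to 0.20 and germline genes to 0.10. With no filter 5 did, among them neural genes, to 0.63, and Wnt targets, to −0.32. Scaling to equal totals changed 5. With a filter of at least 10 in place of 25, contractile genes higher in KO EBs went to 5. With a filter of at least 100, higher genes numbered 772 in all. Counts in lists under that filter, higher then lower in KO EBs, were 1 and 7 for endoderm transcription factors, 1 higher lipid gene, 2 and 6 for plasma proteins, 2 higher apical genes, 1 lower collagen gene, 1 and 4 for contractile genes and 0 lower ATF4 genes. With no filter 2902 genes were higher and 2003 lower, among them 9 and 24 plasma proteins, 6 higher lipid genes, 6 lower collagen genes and 7 and 14 contractile genes. Fewer or more genes tested account for these shifts. GC adjustment and the limit on copied sequence were added after the data were seen. With GC adjustment 714 genes were lower in KO EBs in place of 1136, and 1149 were higher. Beside the main counts, the other list counts, the list medians and the ratios of named genes were compared. Of these 229 moved with GC adjustment and 289 did not, whereas 71 moved with equal totals. A ratio was taken as moved when it shifted beyond its counting error. The intervals given after the folds do not cover such shifts. Endoderm transcription factors then had 0 higher, contractile genes 1 higher, elastic fibre genes 5 lower, and ATF4 genes 9 higher and 0 lower; why was not tested. Over genes with under 10% copied, 0 naive genes were lower, since Dppa3 drops out. In place of 0 genotype calls by edgeR, DESeq2 made 306. Scaling to equal totals moved the all-gene median by 0.117, and then 1582 genes were higher and 880 lower; with TMM factors 1487 were higher and 977 lower.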

Other observations

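Germline, imprinted and interferon genes belong to none of the groups above. Of 22 measured germline genes 3 were at least 2-fold higher in KO EBs and 7 lower, with a median log2 ratio of −0.13 (GC-adjusted 0.10), against an ESC median of −0.46. Smc1b, the meiotic cohesin subunit, stood at 103 in KO EBs and 1146 in WT EBs, and at 88.6 in KO ESCs and 400.1 in WT ESCs. Sycp3, of the synaptonemal complex, stood at 127 in KO EBs, against 651 in WT EBs, and Mael, a piRNA factor, at 155 in KO EBs, against 483 in WT EBs. These 3 genes were lower in KO at both stages.

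Imprinted genes had a median of 0.03 (GC-adjusted 0.02), with 4 of 21 higher and 4 lower by 2-fold in KO EBs. The paternally expressed genes Peg10, a placental gene from a retrotransposon, and Peg3, a zinc-finger factor, stood at 1793 in KO EBs and 5439 in WT EBs and at 1906 in KO EBs and 5029 in WT EBs. The 4 higher genes were Igf2, Ascl2, Ndn and Phlda2. The paternally expressed growth factor Igf2 had a low count in both EB libraries, at 97.02 in KO EBs and 43.6 in WT EBs. For Ascl2, Ndn and Phlda2 the log2 ratios were 2.87, 1.75 and 1.00.

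Interferon and double-stranded RNA response genes split, with 7 of 27 higher and 6 lower in KO EBs and a median of −0.16 (GC-adjusted −0.02). The oligoadenylate synthetase-like gene Oasl1 stood at 121 in KO EBs and 18.7 in WT EBs, beside 348 in KO ESCs and 52.9 in WT ESCs. Ddx58, the RNA sensor RIG-I, stood at 202 in KO EBs, against 480.0 in WT EBs, and the immunoproteasome subunit Psmb8 at 14.9 in KO EBs, against 82.6 in WT EBs.

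Chromosomes differed less than GC bins. Their median log2 ratios of KO EBs over WT EBs lay between −0.34 on chromosome 14 and 0.13 on chromosome 5. By coding length the medians of 5 bins ran from 0.07 for the shortest genes to −0.28 for the longest.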
